A study of Mus musculus with 7 samples.

Results

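The cytoplasmic ribosomal protein genes were taken from the count table by symbol. A gene was included when it was protein-coding in the GENCODE annotation of GRCm38 and its symbol was Rps or Rpl followed by a number, with at most a short suffix, or was Rpsa, Rplp0, Rplp1 or Rplp2. This gave 83 of the 55487 genes listed, 32 of the small and 51 of the large ribosomal subunit. Another 6 symbols fitted the pattern but were annotated as pseudogenes (Rps4l, Rps3a2, Rps3a3, Rpl6l, Rpl32l and Rps12l1) and were left out. Rack1 and Rpl36al, ribosomal proteins whose symbols lie outside the pattern, were described separately.

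The RNA came from precision-cut liver slices (PCLS), thin discs of liver that keep the cell types of the organ in culture, prepared from healthy, unmodified adult male Balb/c mice. Slices were kept for 3 days in supplemented Williams' medium E, either without further addition (CTR, 3 libraries) or with the sodium salt of valproic acid at 2.5 mM (VPA, 4 libraries), a histone deacetylase inhibitor used to preserve the slices. Both groups shared the medium, its refreshment and the day of collection, so CTR slices were cultured too and uncultured liver was not analysed here. The sample names hold a slice culture number, by which CTR replicate 3 and VPA replicate 3 came from culture 71, CTR replicate 1 and VPA replicate 4 from culture 72, both replicates 2 from culture 74, and VPA replicate 1 from culture 73 alone. The methods of the study define a biological repeat as a different liver, so a CTR and a VPA library with the same culture number may share a mouse, which the labels do not state. The main test did not use this number, and a test with slice culture as a block is given beside the counts it changes.

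Ribosomal proteins are the protein part of the machine that translates mRNA. Their transcripts are among the most abundant of any growing cell, and many begin with a run of pyrimidines, the terminal oligopyrimidine (TOP) tract, through which the mTOR pathway controls their translation. Each ribosome takes a single copy of nearly every one of these proteins, apart from the stalk proteins, so cells make them in a balanced way. In liver they serve the hepatocyte, which exports large amounts of plasma protein.

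The libraries held 1400887 to 4773750 counts on genes, and a count of 0 allowed up to 3 counts, or 0.591 to 2.41 CPM, which covers counting error only. These are counts-per-million, the counts on a gene relative to the TMM-normalized size of its library. The kit reads the 3′ end of each transcript, so the count does not grow with its length. CPM can then be set side by side between genes, apart from counts that fall on pseudogenes, described below. Across the tested ribosomal protein genes the rank correlation of transcript length with mean CPM was 0.03 (80 genes, which share the libraries). Of the markers of liver cells, the hepatocyte genes summed to 4892 to 11093 CPM in CTR and 2684 to 9799 CPM in VPA, although Ass1 was at 0 in every library and Tat, Pck1 and Cps1 had 22, 67 and 78 counts over all 7 libraries. Genes of stellate cells and myofibroblasts summed to 2877 to 5135 CPM in CTR and 1457 to 2265 CPM in VPA, with 4 of the 10 genes lower at an unadjusted edgeR p under 0.05 (4.62% of all genes tested) and none without counts. The markers of macrophages held 246 to 497 CPM, those of endothelium 115 to 333 CPM and those of cholangiocytes 258 to 741 CPM over both groups, while lymphocyte and erythroid markers stayed at or under 6.53 CPM. Adgre1 and Marco of the macrophage list, Cd79a and Nkg7 of the lymphocyte list and Hbb-bt and Alas2 of the erythroid list were at 0 in every library. In bulk libraries fewer cells of a type and less RNA per cell cannot be told apart, and the part of the stellate cell difference in any value below was not tested.

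The ribosomal protein genes were detected almost without exception. A count was found on 81 of the 83 genes and in every library on 80, and the same 80 passed the filter on low counts. The 3 others are copies known for restricted expression. Rpl3l, the striated muscle form of Rpl3, and Rpl39l, a copy of Rpl39 best known from the testis, had 0 counts in all 7 libraries, and Rpl10l, the retrogene that replaces Rpl10 in male germ cells, had 1 count, in CTR replicate 1. At these depths a level of up to 2.41 CPM could not be seen in the shallowest library.

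Levels within the ribosome spread over 65.3-fold, from 41.0 CPM for Rpl29 to 2679 CPM for Rplp1 (means of 7 libraries), around a median of 607 CPM. The highest levels were those of Rplp1 and Rplp2, the acidic stalk proteins that recruit elongation factors, of Rps26, which lies at the mRNA exit, of the very short Rpl41, and of Rps29. These 5 genes held 18.6% of the summed CPM of all 83, and 17 genes exceeded 1000 CPM. At the other end lay Rpl29, the paralogue Rpl22l1 and Rps2. The order was nearly the same in both groups (rank correlation of the group means 0.973 over 80 genes, a description, since the genes share their libraries).

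**Figure D1:**
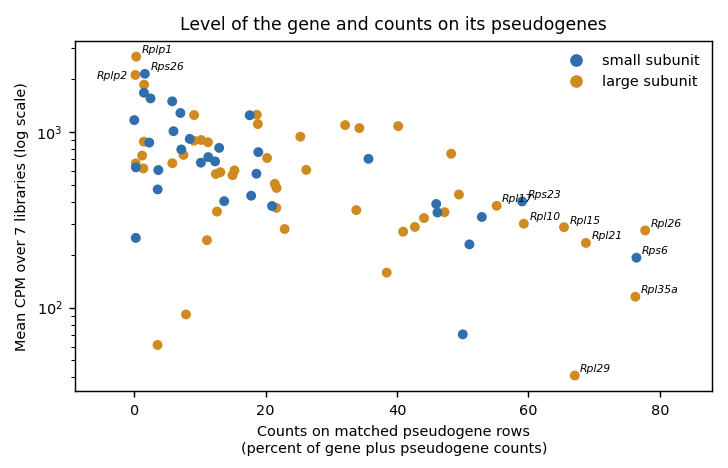
Mean CPM over the 7 libraries (vertical axis, log scale) against the percent of counts that fell on matched pseudogene rows (horizontal axis) for the 80 tested genes, 1 point each, in blue for the small and orange for the large subunit. The counts of a gene enter both axes, so a slope is partly built in. Rplp1, Rplp2 and Rps26 sit at the upper left with almost no pseudogene counts, and Rpl29, Rpl21, Rpl35a, Rps6 and Rpl26 at the right, with over 67.0%.

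Ribosomal protein genes have left very many processed pseudogenes in the genome. By sequence, 1928 pseudogene rows of the table matched a ribosomal protein transcript (blastn, at least 80% identity over at least 50% of the pseudogene) and 1310 of them had a count. They received 25.9 to 28.7 counts for every 100 counts on the genes in each library, with a mean of 26.7 ± 0.729 (SD, n = 3) in CTR and 27.3 ± 1.08 (SD, n = 4) in VPA. The authors' handling of reads with several matches is not given in the sources used here, so a low level of a gene with many copies is uncertain. For 11 genes more than 50% of the combined counts lay on pseudogene rows, led by Rpl26 with 77.8%, Rps6 with 76.4% and Rpl35a with 76.3%, while 17 genes had under 5%. The rank correlation of that share with mean CPM was -0.572 over the 80 tested genes, in part because the counts of a gene enter both. With the VPA difference it was 0.117 over the same genes, which share the libraries. Of the low genes, Rpl29 had 709 counts against 1443 on its pseudogenes and Rps2 had 1277 counts with the same number on its own. Strand use is not given either, and 5 genes overlapped another gene on the same strand and 22 on the opposite one. The opposite neighbour with the most counts was Tlcd1 at Rpl23a (6030 counts against 15782), and the one with the most counts relative to its ribosomal protein gene was the small nucleolar RNA host Snhg9 at Rps2 (834 counts against 1277).

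The first question was whether slices with VPA gave a different share of their reads to the ribosome. In CTR the 83 genes took 4.85%, 6.87% and 6.17% of all counts in replicates 1 to 3, and in VPA 5.67%, 6.15%, 4.45% and 4.75% in replicates 1 to 4. The groups overlapped, with VPA replicate 3 lowest and CTR replicate 2 highest. The means were 5.97% ± 1.03 (SD, n = 3) and 5.25% ± 0.792 (SD, n = 4), a difference of -0.71 percentage points that is smaller than either SD. With 1 library left out the difference ranged from -1.27 to -0.26 points. Within slice cultures the VPA share was lower by different amounts, with differences of -1.72 points in culture 71, -0.11 in culture 72 and -0.72 in culture 74.

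**Figure D2:**
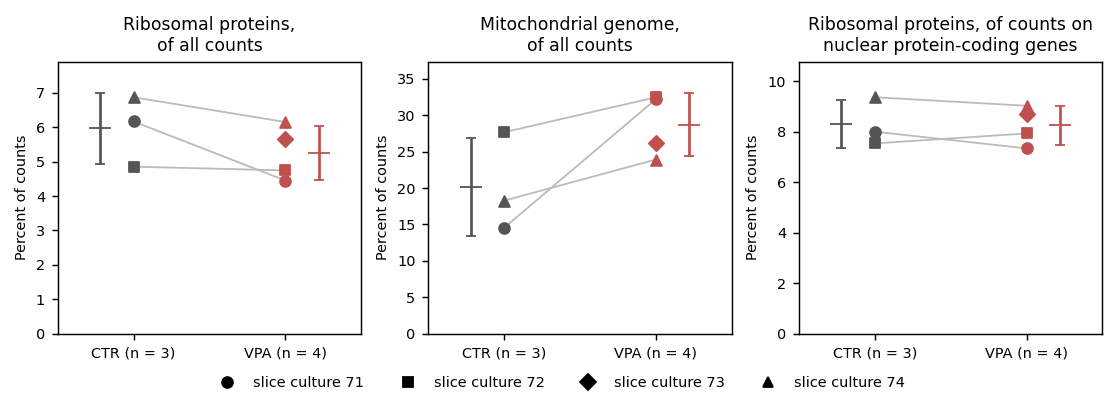
Percent of counts on ribosomal protein genes (left), on the mitochondrial genome (middle) and on ribosomal protein genes among nuclear protein-coding genes (right), 1 point per library, with lines joining the libraries of a slice culture and bars for mean ± SD. Every panel overlaps between CTR (n = 3) and VPA (n = 4), the middle one through CTR replicate 1. The mean of the right panel was 8.30% in CTR and 8.25% in VPA.

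RNA of the mitochondrial genome took a larger mean share in VPA, opposite in direction to the ribosomal proteins. It held 27.7%, 18.3% and 14.5% of the counts in CTR replicates 1 to 3 and 26.2%, 23.9%, 32.2% and 32.5% in VPA replicates 1 to 4. CTR replicate 1 lay above VPA replicates 1 and 2, so the groups overlapped. Of the counts on nuclear protein-coding genes alone, the ribosomal proteins held 8.30% ± 0.951 (SD, n = 3) in CTR and 8.25% ± 0.761 (SD, n = 4) in VPA, a difference of -0.05 points. On this base the libraries of culture 74 had the highest share of each group, 9.36% in CTR and 9.03% in VPA. After TMM scaling the summed level was 58707 ± 6121 CPM (SD, n = 3) in CTR and 54229 ± 3889 CPM (SD, n = 4) in VPA, and these groups overlapped as well. The balance of the subunits was close in all libraries. There were 72.4, 76.5 and 73.2 small subunit counts for every 100 large subunit counts in CTR replicates 1 to 3 and 79.6, 79.3, 75.2 and 72.8 in VPA replicates 1 to 4.

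Gene by gene, no ribosomal protein gene passed the test for a difference between VPA and CTR. In edgeR's quasi-likelihood test over 10876 genes with Benjamini-Hochberg adjustment, 0 of 80 had an adjusted p under 0.05, where 0.00919% of all genes tested did (a single gene, Creb3l3). The smallest adjusted p of the family was 0.447, for Rps9. DESeq2, which called 1.01% of its genes, and limma-voom also called 0 of the family, with smallest adjusted p of 0.190 and 0.245. At an unadjusted p under 0.05 edgeR had 1 gene higher with VPA (Rps28) and 8 lower, where 3.65% and 4.62% of all genes tested were. Among the 3776 other genes with a mean CPM in the range of the ribosomal proteins these shares were 5.85% and 8.63%. DESeq2 had 0 higher and 9 lower at that threshold, where 3.15% and 4.50% of its genes were, and limma-voom had 1 and 8, where 5.09% and 10% were. Requiring at least 10 counts in every library left 1 higher and 3 lower, where 7.79% and 6.22% of the genes so tested were, and no filter gave 0 and 12, where 1.54% and 4.88% were. The split also depended on scaling, since with the summed ribosomal protein counts as the library size 2 genes were higher and 1 was lower, where 5.45% and 2.23% of all genes were. With slice culture as a block 0 genes were higher and 4 lower, where 3.31% and 4.67% of all genes tested were, and the single call over all genes was lost. With 1 library left out the count of lower genes ranged from 2 to 9. It was 3 without CTR replicate 2, CTR replicate 3, VPA replicate 1 or VPA replicate 3. There 4.14%, 3.17%, 4.24% and 5.48% of all genes tested were lower, in that order. It was 2 without VPA replicate 2, where 4.23% were, and 5 with matched pseudogene counts added, where 4.66% were. The count of higher genes was 2 without VPA replicate 4, where 4.06% of all genes tested were higher. It was 0 without CTR replicate 1 or 2 or VPA replicate 1 or 2, where 1.83%, 3.3%, 3.06% and 3.32% were.

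The differences were small and their intervals narrow. The log2 fold change, VPA over CTR, had a median of -0.09 over the 80 genes, against -0.06 over all genes tested and -0.06 over those of similar level. The family median was -0.17 with library totals and -0.19 with no filter, where the median of all genes was -0.13 and -0.16, and 0.026 with the summed ribosomal protein counts as library size, where it was 0.053. It turned to 0.01 without CTR replicate 2, with 38 of 80 genes below 0, and was -0.18 without CTR replicate 1, with 65 below 0. After TMM the value lay below 0 for 52 of 80, where 54.2% of all genes tested and 55.8% of those of similar level did. Rps20, Rplp1 and Rps9 were the 3 genes that differed by more than 0.5 in either direction, and 0 differed by more than 1. In absolute size the median was 0.158, against 0.370 for all genes tested and 0.269 for genes of similar level. The median SE was 0.180 for the family, 0.451 for all genes tested and 0.247 for genes of similar level. For 20 of 80 genes the whole 95% interval lay within 0.5 of 0, a fold of 1.41 either way, where 2.51% of all genes tested and 6.70% of those of similar level had so narrow an interval. Within 1 of 0 lay 74 of 80, against 28.1% and 62.2%.

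**Figure D3:**
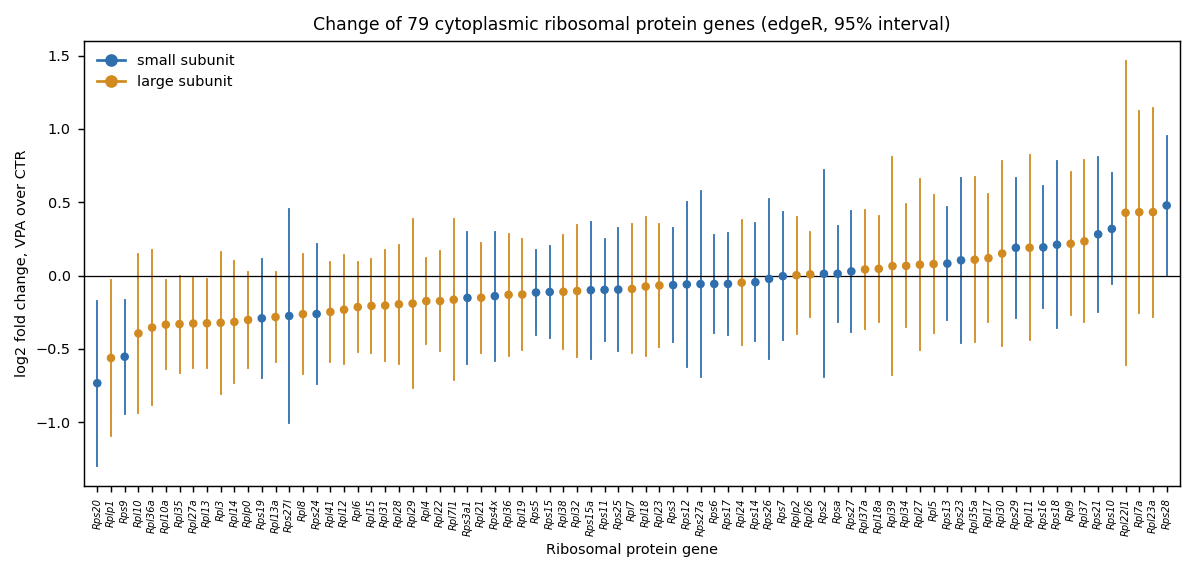
Log2 fold change of VPA over CTR (points) with the 95% interval of the edgeR fit (lines) for 79 of the 80 tested genes in order of their value, blue for the small and orange for the large subunit. Values run from -0.73 for Rps20 to 0.48 for Rps28, and most intervals lie within 1 of 0.

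The spread between libraries of a group was small too. On the log2 CPM scale the median SD was 0.196 within CTR and 0.243 within VPA for these genes, against 0.237 and 0.347 for genes of similar level. CTR replicate 2 was the highest library for 33 genes and VPA replicate 2 for 27, and both carry culture number 74. Each was also the library of its group with the most counts (4773750 and 3102450), and a part of depth was not tested. The lowest library was VPA replicate 3 for 20 genes, CTR replicate 1 for 19, VPA replicate 4 for 17 and VPA replicate 1 for 16. Comparing libraries of the same culture number, 24 genes were lower with VPA in all 3 cultures and 5 were higher in all 3, where 19.9% and 14.7% of all genes tested were. The 5 were Rpl37, Rps10, Rps16, Rps28 and Rps29, of which Rpl37 and Rps16 were chosen after their values were seen.

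**Figure D4:**
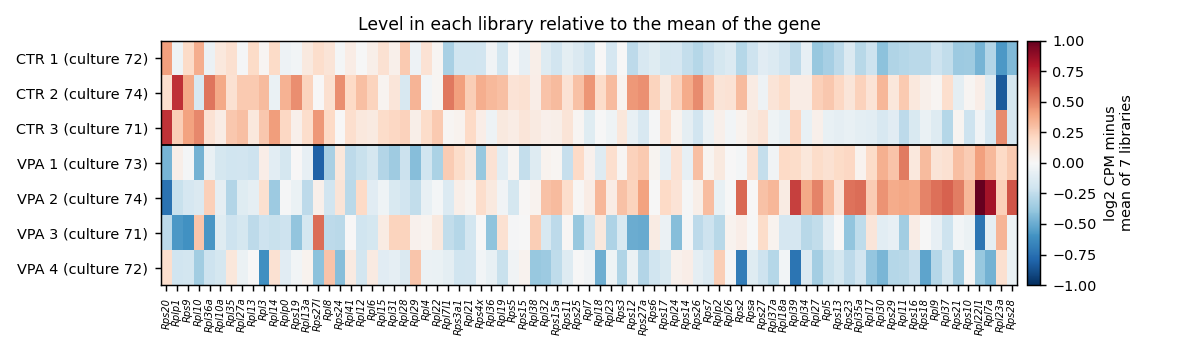
Log2 CPM of 79 of the 80 tested genes (columns, in the order of their log2 fold change) in the 7 libraries (rows) as the difference from the mean of the gene, red for higher and blue for lower. CTR replicate 2 and VPA replicate 2, both of culture 74 and each with the most counts of its group, hold the highest value of 33 and 27 of all 80 genes.

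The letters of the TOP tract were searched at the annotated starts of these genes. A promoter window of RefSeq (GRCm38.p6, 250 bases before to 50 after the annotated start) was given for 63 of the 83 genes. A C followed by at least 4 further C or T, beginning within 10 bases of an annotated start on the gene's strand, was present in 61.9% of the 63, against 34.4% of the windows of 27025 genes and 37.0% of the 7752 other tested genes. The windows below show genes at both ends of the range of VPA differences, the S6 kinase target Rps6, and the pair of Rps27 and its paralogue Rps27l. Each runs 5′ to 3′ on the gene's strand from 20 bases before the start, with the tract in capitals. By this rule a tract may also lie just before the annotated start, as for Rpl10a and Rps27l.
Rps9: gtccaaccgccttgtCTCTCTTTgtctcgg
Rpl10a: gcgtggtggcgCCCCCCCagcggccgcaaa
Rps28: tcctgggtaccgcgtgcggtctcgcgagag
Rps10: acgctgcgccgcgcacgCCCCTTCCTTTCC
Rpl7a: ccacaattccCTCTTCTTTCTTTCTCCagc
Rps6: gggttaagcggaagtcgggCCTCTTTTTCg
Rps27: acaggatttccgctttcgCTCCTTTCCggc
Rps27l: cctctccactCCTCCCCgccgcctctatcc

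These windows lie at chr7:3704021-3704050 (+) for Rps9, chr17:28328451-28328480 (+) for Rpl10a, chr17:33824553-33824582 (-) for Rps28 and chr17:27635235-27635264 (-) for Rps10. Those of the others are chr2:26910787-26910816 (+) for Rpl7a, chr4:86857358-86857387 (-) for Rps6, chr3:90213639-90213668 (-) for Rps27 and chr9:66946066-66946095 (+) for Rps27l. Rps28, the gene with the largest positive difference, has no such tract in its window, but Rps10 and Rpl7a, also among the most positive, have tracts of 13 and 17 bases. The median log2 fold change was -0.11 for the 36 tested genes with a tract and -0.06 for the 24 without. Of the other letters searched, on both strands of the whole window, CCGGAAG, the core bound by ETS factors, was in 41.3% of the 63 windows, 9.93% of all and 21.4% of the other tested genes. AAGATGG, the core of the YY1 motif, was in 15.9%, 7.28% and 8.75%, and TATAAA, the TATA box, in 11.1%, 15.7% and 9.02%. GGGCGG, the GC box of the SP family, was in 61.9% of the ribosomal protein windows, 38.2% of all and 70.3% of the other tested genes. A match is a description of the letters and not a bound site.

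In the small subunit 11 genes had a positive and 21 a negative log2 fold change, with a median of -0.06. Rps20, a universally conserved protein of the head of the subunit, had the most negative value of the family. Its level was 1951, 1652 and 2421 CPM in CTR replicates 1 to 3 and 1067, 883, 1224 and 1655 CPM in VPA replicates 1 to 4. VPA replicate 4 lay just above the lowest CTR library and the other VPA libraries below all of CTR. The log2 fold change was -0.73 (SE 0.242, 95% interval -1.30 to -0.17, edgeR adjusted p = 0.487).

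Rps9, a protein that binds early in assembly and helps keep decoding accurate, separated the groups. It had 885, 1007 and 1021 CPM in CTR replicates 1 to 3 and 765, 691, 509 and 681 CPM in VPA replicates 1 to 4. Every VPA library lay below every CTR library. Its log2 fold change was -0.55 (SE 0.167, 95% interval -0.94 to -0.16, edgeR adjusted p = 0.447), and it was lower with VPA in all 3 slice cultures that held both conditions.

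Rps28, a small protein near the mRNA exit whose human gene is among those of Diamond-Blackfan anaemia, had the most positive value. Its CPM was 310, 374 and 378 in CTR replicates 1 to 3 and 505, 653, 410 and 403 in VPA replicates 1 to 4. No VPA library fell into the CTR range, with VPA replicate 2 far above the rest. The log2 fold change was 0.48 (SE 0.204, 95% interval 0.00 to 0.95, edgeR adjusted p = 0.600), and 0.32 without VPA replicate 2. On the opposite strand it overlaps Kank3, which had 87 counts against its 7316.

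Rps10 and Rps21 followed. Rps10, which carries the mark of stalled ribosomes as a ubiquitin target, had 585 ± 76.6 CPM (SD, n = 3) in CTR and 730 ± 95.8 CPM (SD, n = 4) in VPA, a log2 fold change of 0.32 (edgeR adjusted p = 0.688). Relative to the mean of all tested ribosomal protein genes in the same library it was 0.40 higher in VPA on the log2 scale, with SDs of 0.053 in CTR and 0.079 in VPA. So the level of Rps10 against its own family was very even within each group. Rps21 had 774 ± 104 CPM (SD, n = 3) and 940 ± 241 CPM (SD, n = 4), a value of 0.28 with overlapping groups. It was 0.14 without VPA replicate 2 and 0.17 without CTR replicate 1.

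**Figure D5:**
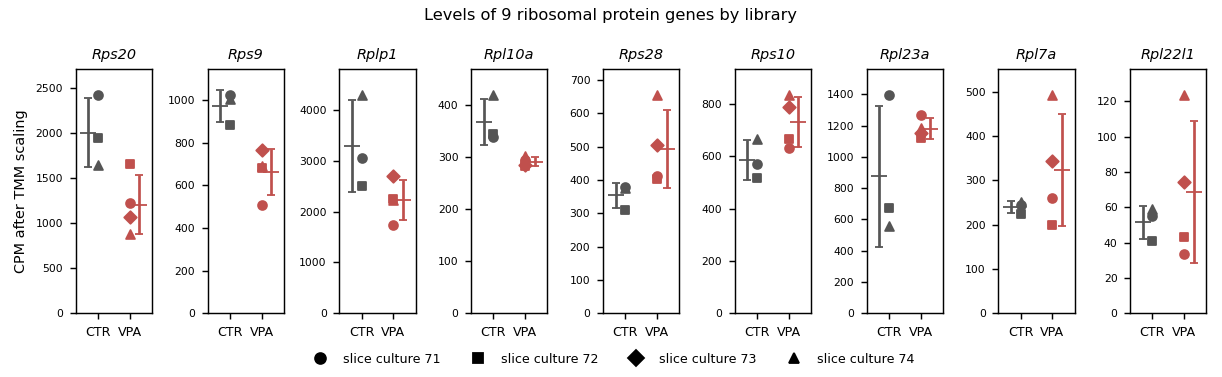
CPM after TMM scaling of 9 genes with large positive or negative differences, 1 point per library with the shape giving the slice culture, and bars for mean ± SD of CTR (n = 3) and VPA (n = 4). Rps9 and Rpl10a lie lower in all VPA libraries and Rps28 higher, while the other genes overlap. Relative to its mean Rpl23a varies most within CTR, and in CPM Rplp1 does.

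Other small subunit genes were described for their role. Rps6, the target of S6 kinase, had 177, 223 and 190 CPM in CTR and 195, 191, 203 and 167 CPM in VPA, a log2 fold change of -0.06 (95% interval -0.39 to 0.28), with 76.4% of its combined counts on pseudogenes. Rpsa, also known as the laminin receptor, was at 0.01 (95% interval -0.32 to 0.34). Rps27a, made as a fusion with ubiquitin, was at -0.06 (95% interval -0.69 to 0.58). All these intervals span 0. Rps19, the gene most often mutated in Diamond-Blackfan anaemia, had 802 ± 154 CPM (SD, n = 3) in CTR and 656 ± 78.7 CPM (SD, n = 4) in VPA, a value of -0.29 (edgeR adjusted p = 0.753) that was -0.13 without CTR replicate 2. Over the 19 genes of that anaemia the median was -0.00, with 9 positive and 10 negative. The abundant Rps26 and Rps29 were at -0.02 and 0.19, and Rps2, which is low and has many pseudogenes, at 0.01 (95% interval -0.69 to 0.72).

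In the large subunit 17 genes had a positive and 31 a negative log2 fold change, with a median of -0.13. The acidic stalk genes differed among themselves. Rplp1, the most abundant gene of the family, had 2510, 4285 and 3061 CPM in CTR replicates 1 to 3 and 2695, 2218, 1735 and 2251 CPM in VPA replicates 1 to 4. VPA replicate 1 lay above the lowest CTR library, and CTR replicate 2 stood far above all others. Its log2 fold change was -0.56 (SE 0.230, 95% interval -1.10 to -0.03, edgeR adjusted p = 0.575), and -0.33 without CTR replicate 2. Rplp0, the stalk base, had 646 ± 87.0 CPM (SD, n = 3) and 524 ± 31.6 CPM (SD, n = 4), a value of -0.30 (edgeR adjusted p = 0.639). Rplp2, the partner of Rplp1, had 2106 ± 226 CPM (SD, n = 3) and 2110 ± 328 CPM (SD, n = 4), with a log2 fold change of 0.00 (95% interval -0.40 to 0.40).

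Rpl10a, a protein of the mobile L1 stalk, separated the groups in the large subunit. It had 344, 418 and 338 CPM in CTR replicates 1 to 3 and 283, 302, 295 and 283 CPM in VPA replicates 1 to 4. The highest VPA library was still under the lowest CTR library, and the log2 fold change was -0.33 (SE 0.130, 95% interval -0.64 to -0.03, edgeR adjusted p = 0.561). Rpl13a, which can leave the ribosome to silence inflammatory mRNAs, also did not overlap, with 1393 ± 60.9 CPM (SD, n = 3) and 1145 ± 102 CPM (SD, n = 4) and a value of -0.28 (edgeR adjusted p = 0.639). In all, 7 of the 80 genes had every VPA library below every CTR library and 1, Rps28, had every one above, where 7.41% and 4.44% of all genes tested did, and 9.61% and 5.59% of those of similar level. Besides Rps9, Rpl10a and Rpl13a these included Rpl13, Rpl27a and Rpl35, chosen after their values were seen, each with a log2 fold change of -0.33. With plain library totals in place of TMM the counts were 11 below and 0 above, where 9.89% and 2.80% of all genes were.

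Rpl10, which lies close to the tRNA sites, had a value of -0.39 and Rpl36a one of -0.35, both with overlapping groups, and Rpl36a was at -0.18 without CTR replicate 2 and -0.24 without VPA replicate 3. Rpl3, a core protein of the peptidyl transferase region, was at -0.32 (95% interval -0.81 to 0.16, and -0.19 without VPA replicate 4) and the short Rpl41 at -0.25 (95% interval -0.59 to 0.10). At the top of the subunit, Rpl23a, which docks the signal recognition particle at the exit tunnel, had 675, 560 and 1394 CPM in CTR replicates 1 to 3 and 1150, 1185, 1271 and 1122 CPM in VPA replicates 1 to 4. The VPA libraries were close together and CTR replicate 3 lay above them all, so the value of 0.43 (SE 0.306, edgeR adjusted p = 0.833) rests on CTR replicates 1 and 2. Without CTR replicate 3 the log2 fold change was 0.91, without CTR replicate 2 it was 0.18 and without CTR replicate 1 it was 0.26. Rpl7a had 225, 251 and 245 CPM in CTR and 344, 492, 259 and 199 CPM in VPA. Its value of 0.43 (SE 0.295, edgeR adjusted p = 0.823) came with a VPA range that reached below and far above CTR, and was 0.16 without VPA replicate 2. Rpl5 and Rpl11, which bring the 5S rRNA to the ribosome and bind MDM2 when assembly fails, were at 0.08 (95% interval -0.39 to 0.55) and 0.19 (95% interval -0.44 to 0.82). Over the 7 genes around the exit tunnel the median was 0.01, and over the 33 universally conserved proteins and the 47 others it was -0.09 and -0.10.

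Relative to their own family, most genes kept their place. After the mean log2 CPM of all tested ribosomal protein genes was subtracted in each library, 61 of 80 differed by less than 0.25 between VPA and CTR. The exceptions with the largest values were Rps20 at -0.67, Rps9 at -0.48 and Rplp1 at -0.46 on the lower side, and Rpl23a at 0.63, Rps28 at 0.54, Rpl7a at 0.43 and Rps10 at 0.40 on the higher side. For Rps28 the SDs of this relative level were 0.071 in CTR and 0.189 in VPA, and for Rpl23a they were 0.722 and 0.159.

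Some ribosomal proteins have a second gene that can replace the main one, so the ratio of the copies was compared within each library, where scaling cancels. Rpl22l1, a paralogue that competes with Rpl22, gave 6.52, 9.39 and 7.42 counts for every 100 on Rpl22 in CTR replicates 1 to 3 and 15.1, 20.3, 5.13 and 7.31 in VPA replicates 1 to 4. VPA replicates 1 and 2 were high and the other VPA libraries were within or below the CTR range. The log2 ratio was 0.44 higher in VPA (two-sided exact permutation test over 35 splits, p = 0.457, adjusted 0.609 over 4 ratios). With 1 library left out it was 0.12 to 0.77 higher. Rps27l, a p53 target related to Rps27, gave 62.2, 53.1 and 62.8 per 100 counts on Rps27 in CTR and 34.4, 43.3, 66.6 and 44.4 in VPA. Here 3 of 4 VPA libraries lay below CTR and VPA replicate 3 above it, and the log2 ratio differed by -0.37 (exact permutation p = 0.200, adjusted 0.400). For Rpl7l1 and Rpl7 the difference was -0.06 (exact permutation p = 0.629, adjusted 0.629), with 8.72 to 11.7 per 100 over all libraries. The transcribed pseudogene Rps4l gave 8.02 to 12.6 per 100 counts on Rps4x in CTR and 11.5 to 27.7 in VPA, a log2 difference of 0.69 (exact permutation p = 0.200, adjusted 0.400). Within slice cultures it was higher with VPA in each, at 8.02 and 11.5 per 100 in culture 71, 10.6 and 12.2 in culture 72 and 12.6 and 19.4 in culture 74. The permutation test did not use these pairs. The smallest p this design allows is 0.0286.

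The genes around the ribosome were set beside it from lists. Of the ribosomal proteins with other symbols, Rack1, the scaffold on the small subunit, had 862 ± 173 CPM (SD, n = 3) in CTR and 938 ± 165 CPM (SD, n = 4) in VPA, a log2 fold change of 0.12 (edgeR adjusted p = 0.951). Rpl36al, a close copy of Rpl36a, had 232 ± 45.5 CPM (SD, n = 3) and 213 ± 41.3 CPM (SD, n = 4), a value of -0.13 (edgeR adjusted p = 0.949). In these lists the counts by unadjusted p stand beside 3.65% higher and 4.62% lower over all genes tested. Of 14 other TOP mRNAs, 0 were higher and 4 lower by unadjusted p, with a median of -0.15. The nucleolar chaperone Npm1 was lowest of them with 1222 ± 49.2 CPM (SD, n = 3) and 744 ± 127 CPM (SD, n = 4), a log2 fold change of -0.72 (edgeR adjusted p = 0.295), and the histone chaperone Nap1l1 was at -0.52 (edgeR adjusted p = 0.310). Among 32 initiation factors 0 were higher and 6 lower, with a median of -0.10. They included Eif6, which holds the large subunit apart until it is mature, at -0.52 (edgeR adjusted p = 0.566).

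Ribosome assembly genes had the lowest median of these lists, -0.21 over 58 genes, with 0 higher and 4 lower by unadjusted p. Dkc1, the pseudouridine synthase of the nucleolus, had 249 ± 27.9 CPM (SD, n = 3) in CTR and 96.9 ± 31.3 CPM (SD, n = 4) in VPA. No VPA library reached the CTR range, and the log2 fold change was -1.36 (SE 0.260, edgeR adjusted p = 0.210). Ncl, the nucleolar protein nucleolin, had 1888 ± 32.0 CPM (SD, n = 3) and 1312 ± 118 CPM (SD, n = 4), a value of -0.53 (edgeR adjusted p = 0.328). Of 18 tested genes of growth signalling 0 passed in either direction, with a median of -0.02. Of the S6 kinase genes, Rps6kb1 was at -0.39 (edgeR adjusted p = 0.611) and Rps6kb2 at 1.25 (edgeR adjusted p = 0.902). Rps6kb2 was low, with means of 9.98 CPM in CTR and 23.4 CPM in VPA, and was at 0 in CTR replicate 2. Gas5, which hosts small nucleolar RNAs and has a TOP tract of its own, was at -0.58 (edgeR adjusted p = 0.561), in a list of 7 with 1 lower and a median of 0.13. The mitochondrial ribosome had 0 of 73 tested genes higher and 3 lower, with a median of -0.16, and its smallest p was that of Mrps25 at -0.72 (edgeR adjusted p = 0.555). None of the genes in these lists passed the adjusted test.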

How the data were processed

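RNA-seq of mouse PCLS on day 3 (3 CTR, 4 VPA) was used. The authors made 3′ end libraries, mapped the reads to mm10 with STAR, used StringTie, and deposited raw counts per Ensembl gene, without normalization. The counting program, its use of strand and its treatment of reads with several matches are not given in the sources used here. No column of the table was left unused. Groups, replicate numbers and slice culture numbers came from the labels. Symbols and biotypes came from GENCODE M21, and promoter windows from RefSeq.

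From the counts, R 4.3.3 with edgeR 4.0.16 gave TMM normalization, filterByExpr and the robust quasi-likelihood test with condition as the only term, on 10876 genes. P-values were adjusted over all of these after Benjamini and Hochberg, with 0.05 as the threshold. Log2 CPM values used a prior count of 2. Ratios of paralogues had 1 count added and were tested by exact permutation. Pseudogene transcripts were matched with blastn 2.17.0. The alternatives were DESeq2 1.42.0, limma-voom (limma 3.58.1), other scalings and filters, a fit without robust dispersion, replicate blocks, pseudogene counts added and each library left out. The code was tested on simulated data.

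The gene family, its lists and tests were chosen with earlier results of these data known. Named ribosomal protein genes were the 5 highest and 3 lowest by mean CPM, the 6 most positive and 6 most negative by log2 fold change with at least 5 CPM in the higher group, the stalk, 5S RNA partner, ubiquitin fusion and paralogue groups, and Rps6, Rpsa, Rpl13a, Rps19 and Rpl3, and in other lists up to 3 genes with the smallest p. Cell type markers gave the levels of other cells, with counts by unadjusted p. Deviations of libraries with the same slice culture number had correlations over genes of 0.107, 0.0256 and 0.0546 for cultures 71, 72 and 74. Those with the same replicate number had -0.0539, 0.0546 and 0.107, but replicates 2 and 3 are the pairs of cultures 74 and 71. These values cannot decide whether a liver was shared, and the main test had no block. Since the methods count each liver as a repeat, a shared culture number may mark a shared mouse, so the block by culture is given where it moved a count. Some genes are not reported by name here or shown in the plots that name each gene.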

Additional observations from a re-analysis of the deposited data

Results flagged for a closer look

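Of 37 measures checked for a VPA library that stands apart from the other VPA libraries, 1 did so: the total of counts on genes was 3102450 in VPA replicate 2, against 1400887 to 1515954 in the others (Dixon ratio 0.932). Chance marks about 0.05 of such groups. This library was also the highest of all 7 for 27 ribosomal protein genes, and without it the median log2 fold change of the family was -0.13.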

How the results depend on the processing

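No ribosomal protein gene had an adjusted p under 0.05 under any alternative run. Over all genes, the 1 call of the main test became 154 with DESeq2, 36 with at least 10 counts required in every library, 10 with no filter, and 0 with the summed ribosomal protein counts as library size. Ribosomal protein genes higher at an unadjusted p under 0.05 (1 in the main test) were 0 with DESeq2, library totals, no filter or no robust dispersion. Of all genes 3.15%, 2.22%, 1.54% and 3.6% were higher under these, in that order. With the summed counts as library size 2 ribosomal protein genes were higher (5.45% of all genes). Ribosomal protein genes lower (8 in the main test) were 12 with no filter (4.88% of all genes), 9 with DESeq2 (4.5%) and 1 with the summed counts (2.23%). They were 3 with the stricter filter (6.22%) and 5 with matched pseudogene counts added (4.66%), an alternative chosen after the data were seen. Genes without overlap (1 above, 7 below) were 0 and 11 with library totals and 3 and 4 with the summed counts (6.56% and 4.04% of all genes), also chosen later. The summed counts moved the median log2 fold change of all genes from -0.06 to 0.05 and left 33 of 80 ribosomal protein genes below 0, against 52 in the main test and 59 with library totals.

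The replicate block by slice culture gave 0 calls over all genes, 0 ribosomal protein genes higher and 4 lower by unadjusted p (3.31% and 4.67% of all genes), and the replicate block by replicate number gave 0 calls over all genes. The biological coefficient of variation was 0.558 with the culture block and 0.638 with the number block, against 0.609 in the main test.

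With each library left out in turn, calls over all genes ranged from 0 to 2, ribosomal protein genes higher from 0 to 2 and lower from 2 to 9, their median log2 fold change from -0.18 to 0.01 and the difference in share from -1.27 to -0.26 points. The median was above 0 without CTR replicate 2. The count of lower genes was 3 without CTR replicate 2, CTR replicate 3, VPA replicate 1 or VPA replicate 3, and 2 without VPA replicate 2. Over all genes, the fits with a library left out had 1.79% to 4.06% higher and 2.83% to 6.22% lower by unadjusted p. The paralogue ratios kept their direction, with 0.12 to 0.77 for Rpl22l1, -0.55 to -0.23 for Rps27l, -0.14 to -0.00 for Rpl7l1 and 0.45 to 0.87 for Rps4l.

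Some named genes changed sign, among them Rpl22l1, Rpl29 and Rpl7l1 (0.43, -0.19 and -0.16 in the main test). Rplp2 was at -0.0069 with DESeq2, -0.0048 with limma-voom, -0.075 with library totals, -0.095 with no filter, -0.041 and -0.088 with the blocks by culture and by number, and -0.0018 with matched pseudogenes. Rps2 was at -0.051 with library totals, -0.078 with no filter, -0.029 with the culture block and -0.18 with matched pseudogenes. Rpsa was at -0.062, -0.085 and -0.034 under the first 3 of these, and Rpl5 at -0.016 with no filter. Rps26 was at 0.0051 with limma-voom, and with the summed counts and the number block Rps26 was at 0.10 and 0.034, Rps27a at 0.051 and 0.011 and Rps6 at 0.063 and 0.0034. Rpl29 was at 0.21 with matched pseudogenes. With a library left out, Rpl22l1 ranged from -0.019 to 0.65, Rpl5 from -0.066 to 0.24, Rpl7l1 from -0.35 to 0.088, Rplp2 from -0.093 to 0.084, Rps2 from -0.21 to 0.19, Rps26 from -0.17 to 0.25, Rps27a from -0.21 to 0.17, Rps6 from -0.14 to 0.036 and Rpsa from -0.092 to 0.049. Without a change of sign, Rpl11 ranged from 0.032 to 0.38, Rps29 from 0.084 to 0.29, Rps27l from -0.56 to -0.093 and Rpl29 from -0.33 to -0.078. The cause of these shifts was not tested.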
